A study of Mus musculus with 21 samples.

Results

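Bdh1, Oxct1, Acat1, Slc16a1 and Slc16a7 are the genes through which heart muscle takes up and burns ketone bodies, and they were followed in left ventricles of mice with and without the R403Q mutation of cardiac myosin heavy chain, on a diet with or without empagliflozin (EMPA). The 5 genes were picked by name from the 55450 genes of the count table through their Ensembl identifiers, and all 5 had enough reads to be among the 17309 genes tested. RNA came from 21 male mice of the 129S6/SvEv strain. R403Q mice are heterozygous for a hypertrophic cardiomyopathy mutation knocked into Myh6, and their wild-type littermates (WT) served as controls. Mice ate a control diet (CD) with 10% of its energy from lard and 0% sucrose, or that diet with 0.15 mg EMPA per g, close to 15 mg per kg body weight, begun at 9 to 10 weeks of age. The hearts used for RNA were taken at 12 weeks of age according to the methods of the study, whereas the sample labels describe a protocol of 16 weeks on the diet. There were 5 WT-CD, 7 R403Q-CD, 4 R403Q-EMPA and 5 WT-EMPA mice. They came from 4 cages on the control diet and 3 on the EMPA diet, and 0 cages held both diets, so that diet and cage cannot be told apart.

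The ketone bodies β-hydroxybutyrate and acetoacetate are made in the liver and travel to the heart in blood. They cross membranes through monocarboxylate transporters, of which Slc16a1 encodes MCT1 and Slc16a7 encodes MCT2, a carrier with higher affinity for its substrates. In mitochondria, the dehydrogenase encoded by Bdh1 turns β-hydroxybutyrate into acetoacetate, the transferase encoded by Oxct1 (SCOT) activates acetoacetate with coenzyme A from succinyl-CoA, and the thiolase encoded by Acat1 splits acetoacetyl-CoA into acetyl-CoA. SCOT is the step that the liver lacks, while the heart is a steady user of ketone bodies. Acat1 also works in isoleucine breakdown, and both transporters also carry lactate and pyruvate.

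Oxct1 was the most abundant of the 5 transcripts for its length, and Slc16a7 the scarcest. Levels are given as counts scaled to a common library total (CPM, with TMM library sizes), and, where genes are compared with each other, as CPM per kb of exon. Oxct1 stood at 439 ± 62.0 CPM per kb (SD, n = 21), Acat1 at 185 ± 24.1, Slc16a1 at 77.8 ± 8.78, Bdh1 at 19.7 ± 6.68 and Slc16a7 at 1.56 ± 0.536. This order held in 21 of 21 mice, so the levels of neighbours in it did not change places in any heart. Raw counts ran from 35604 to 71609 per mouse for Oxct1, from 1012 to 5700 for Bdh1 and from 364 to 1176 for Slc16a7. Totals per mouse ran from 23491535 to 43539684 counts.

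On GRCm38 the genes lie on 5 chromosomes: Bdh1 (ENSMUSG00000046598) at chr16:31422280-31458901 on the plus strand, Oxct1 (ENSMUSG00000022186) at chr15:4026383-4155344 on the plus strand, Acat1 (ENSMUSG00000032047) at chr9:53580522-53610382 on the minus strand, Slc16a1 (ENSMUSG00000032902) at chr3:104638668-104658462 on the plus strand and Slc16a7 (ENSMUSG00000020102) at chr10:125219270-125389465 on the minus strand. Annotated non-coding genes overlap 4 of the 5, Acat1 being the exception. The most abundant of these, BC037032 on the opposite strand at Oxct1, reached 4.69 CPM in any mouse, and Gm15743, antisense within Bdh1, reached 2.01 CPM.

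The libraries held the RNA of ventricular muscle, with other cells in it. Summed over 7 cardiomyocyte markers, the level ran from 43015 to 91714 CPM, beside 1.19 to 24.8 CPM for 5 adipocyte markers and 111 to 338 CPM for 5 macrophage markers. A lower level of a gene in such tissue can mean fewer cells that use it or less RNA in each cell, and these cannot be told apart. R403Q is a missense change, so the level of Myh6 does not check the genotype labels. R403Q-CD replicate 2 stood apart: Nppa, a gene of stretched and atrial muscle, was at 10996 CPM there against 883 to 3826 in the other 6 mice of the group, and Col1a1, which encodes collagen, at 681 against 48.5 to 201. The atrial markers Myl7, Myl4 and Sln were also highest of all 21 mice in this heart, at 180.4, 339 and 88.4 CPM against at most 108, 121 and 31.2 CPM in any other mouse, and the part of atrial tissue in its values was not tested. The same heart held the 43015 CPM of cardiomyocyte markers, the lowest level of any mouse. It also had the lowest Oxct1, Acat1 and Slc16a7 and the highest Bdh1 of its group. Many results that rest on it are given with and without it, whereas ratios between genes are given only with it.

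**Figure D1:**
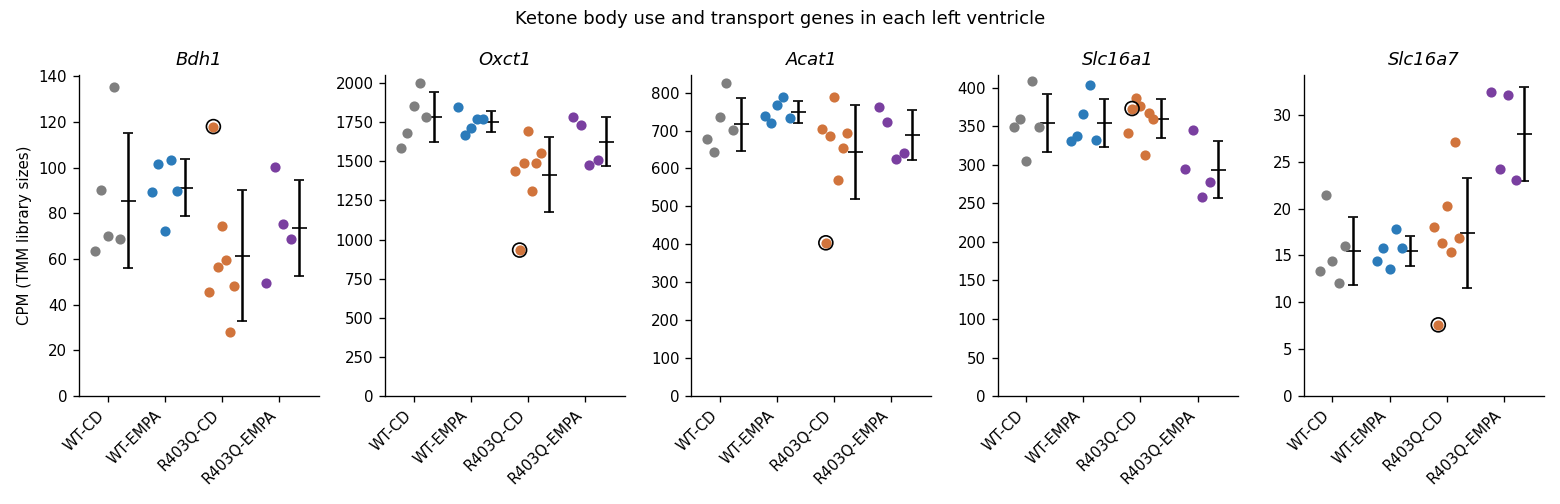
Level of each gene in CPM (y axis, starting at 0, a separate scale for each gene) in the 4 groups (x axis). Each point is a mouse, the ringed point is R403Q-CD replicate 2, and the bar beside the points is the group mean with its SD. Slc16a7 lies between 23.1 and 32.5 CPM in the 4 R403Q-EMPA mice and does not exceed 17.9 CPM in the 5 WT-EMPA mice.

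Of the 5 genes, only Slc16a7 differed between genotypes past the threshold, and it was higher in R403Q than in WT hearts when both diets were averaged. The 5 WT-CD mice had 12.1, 13.3, 14.4, 16.0 and 21.5 CPM of Slc16a7, and the 5 WT-EMPA mice 13.6, 14.4, 15.7, 15.8 and 17.9. R403Q-CD mice ran from 7.60 to 27.2 CPM with a median of 16.8 (n = 7), where the lowest was replicate 2 and the lowest of the other 6 was 15.4. The 4 R403Q-EMPA mice had 23.1, 24.3, 32.1 and 32.5 CPM. Every R403Q-EMPA heart was thus above every WT heart of either diet, while R403Q-CD overlapped all 3 other groups. How many of all genes separate R403Q-EMPA from all WT hearts was not counted, and 6.77% did not overlap between R403Q-EMPA and WT-EMPA. Averaged over diets, Slc16a7 rose by 0.51 on the log2 scale (42.4%, 95% interval 0.19 to 0.83, SE 0.152, adjusted p = 0.0362, edgeR's quasi-likelihood test with Benjamini-Hochberg adjustment over all tested genes). That made 1 of 5 genes past the threshold in this comparison, against 10.9% of all genes tested and 6.3% that were higher. At an unadjusted p under 0.05 there were 2 of 5, against 29% of all genes, and DESeq2 called 2 of 5, against 15.5%.

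The call for Slc16a7 depended on how cages and single mice were handled. With cage as a replicate block, in an edgeR fit of its own, the estimate was 0.39 and the adjusted p was 0.229. The 4 R403Q-EMPA mice came from 2 cages and the 5 WT-EMPA mice from 3. Mice of a cage with WT alone add nothing to the genotype estimate of that fit. With cage as a random effect in limma voom the estimate was 0.43 with an adjusted p of 0.0837. Leaving out 1 mouse at a time kept the estimate between 0.44 and 0.58, while the adjusted p went from 0.00304 to 0.0843 and missed the threshold in 9 of 21 fits. Those 9 fits left out WT-CD replicate 1, 3 or 4, WT-EMPA replicate 1, 2 or 5, R403Q-CD replicate 4, or R403Q-EMPA replicate 1 or 3. The lowest adjusted p came without R403Q-CD replicate 2. Marker genes were compared in the same contrast, where 10.9% of all genes passed. Macrophage markers moved with genotype as well: 5 of 5 (Adgre1, Cd68, Csf1r, C1qa and C1qb) passed and were higher in R403Q. Their summed level ran from 190.0 to 338 CPM in R403Q-CD and from 214 to 277 CPM in R403Q-EMPA against 111 to 193 CPM in all WT mice. Fibroblast markers had positive estimates in 5 of 5 genes (median 0.40), of which 1 passed (Dcn), and their summed level was 1530 to 1725 CPM in R403Q-EMPA against 950.2 to 1482 CPM in WT-EMPA, without overlap, and 1335 to 3315 CPM in R403Q-CD (1335 to 2237 without replicate 2) against 996.8 to 1609 CPM in WT-CD. Endothelial markers had positive estimates in 6 of 6 genes (median 0.14), of which 1 passed (Emcn), and their summed level overlapped between genotypes on each diet, from 645 to 828 CPM in WT and from 750.2 to 967 CPM in R403Q hearts. The part of these cell types in the Slc16a7 difference was not tested.

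Within single diets, 0 of 5 genes passed the edgeR threshold between genotypes. On the control diet (R403Q-CD against WT-CD) the difference of Slc16a7 was 0.17 (95% interval -0.25 to 0.58, adjusted p = 0.668), and 0.29 without R403Q-CD replicate 2 (adjusted p = 0.326). On EMPA (R403Q-EMPA against WT-EMPA) it was 0.85, or 1.81-fold (95% interval 0.38 to 1.33, adjusted p = 0.115), and the groups did not overlap, as was so for 1 of 5 of these genes and 6.77% of all genes tested. In R403Q-CD against WT-CD, R403Q-EMPA against R403Q-CD and WT-EMPA against WT-CD the groups overlapped for 5 of 5, and 2.12%, 1.62% and 3.45% of all genes did not overlap. Without R403Q-CD replicate 2 in the fit the adjusted p was 0.0208, and DESeq2 gave 0.0216. The genes past the edgeR threshold made up 1.44% of all tested on the control diet and 0.0578% on EMPA, and at an unadjusted p under 0.05 there were 1 and 2 of the 5 genes, respectively, against 20.9% and 14.7% of all genes. DESeq2 called 1 of the 5 in each, against 5.67% and 1.76% of all genes, and limma called 0 in each, both on the variance-stabilized values and with voom.

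Oxct1, the committed step of ketone use, lay lower in most R403Q-CD hearts without passing the edgeR threshold. The 5 WT-CD mice had 1585, 1683, 1786, 1854 and 1999 CPM, and R403Q-CD ran from 933 (1308 without replicate 2) to 1692 CPM with a median of 1489 (n = 7). In R403Q-CD, 6 of 7 mice were below every WT-CD mouse and 1 was within their range. The difference was -0.33 (95% interval -0.55 to -0.11, SE 0.106, adjusted p = 0.0920, edgeR). DESeq2 gave -0.34 with an adjusted p of 0.0335, and edgeR without R403Q-CD replicate 2 gave -0.26 with an adjusted p of 0.0780. On EMPA the groups stood closer, with 1478, 1511, 1733 and 1784 CPM in R403Q-EMPA and 1668, 1713, 1769, 1770 and 1844 CPM in WT-EMPA, and the difference was -0.11 (95% interval -0.36 to 0.15). Averaged over diets it was -0.22 (95% interval -0.39 to -0.05, adjusted p = 0.0785), past the threshold in DESeq2 (adjusted p = 0.0344) and in edgeR without R403Q-CD replicate 2 (-0.19, adjusted p = 0.0287). Those fits called 15.5% and 12.6% of all genes. The summed level of the 7 cardiomyocyte markers was 80332 to 87965 CPM in WT-CD (median 84659) and 43015 to 82424 CPM in R403Q-CD (median 76593), where the lowest value without replicate 2 was 63639 CPM. On EMPA it was 81059 to 91714 CPM in WT and 69359 to 78273 CPM in R403Q hearts. Most of these gaps lay in Myh6, the gene that carries the mutation, at a mean of 43239 CPM in WT-CD, 32934 in R403Q-CD, 45221 in WT-EMPA and 34797 in R403Q-EMPA. Summed over the other 6 markers, a split made after the values were seen, the level overlapped between genotypes on each diet, with 38666 to 44042 CPM in WT-CD, 25485 to 44423 in R403Q-CD (34735 to 44423 without replicate 2), 36971 to 41252 in WT-EMPA and 36272 to 44730 in R403Q-EMPA. Of the 7 markers 0 were at 0 counts in any group. Their part in the values of Oxct1, Bdh1 and Acat1 was not tested.

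Bdh1, which begins the use of β-hydroxybutyrate, varied more between mice than the enzymes after it. The 5 WT-CD mice had 63.5, 68.8, 70.1, 90.3 and 135 CPM, a coefficient of variation of 34.6% against 8.92% for Oxct1 in the same hearts. R403Q-CD ran from 28.1 to 118 CPM with a median of 56.6 (n = 7). Here 5 of 7 R403Q-CD mice were below every WT-CD mouse. The highest of the 7 was replicate 2, the heart with the high Nppa, and the highest of the other 6 was 74.4 CPM. WT-EMPA mice had 72.1, 89.3, 89.9, 101.5 and 103 CPM, and R403Q-EMPA mice 49.4, 68.8, 75.3 and 100.4 CPM, with overlap. Averaged over diets the genotype difference was -0.39 (95% interval -0.80 to 0.01, adjusted p = 0.186, edgeR). Without R403Q-CD replicate 2 it was -0.52 with an adjusted p of 0.0369, so that for Bdh1 this 1 heart decided the call. In that fit 12.6% of all genes passed.

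Acat1 did not pass the threshold between genotypes in any comparison. WT-CD mice had 644, 678, 701, 735 and 826 CPM, and R403Q-CD ran from 404 to 789 CPM with a median of 686 (n = 7). The lowest was again replicate 2, and the lowest of the other 6 was 569 CPM. R403Q-EMPA mice had 626, 641, 722 and 763 CPM, and WT-EMPA mice 720.2, 733, 737, 768 and 790 CPM. All groups overlapped. The genotype difference averaged over diets was -0.14 (95% interval -0.32 to 0.04, adjusted p = 0.287, edgeR), and -0.10 without R403Q-CD replicate 2. All 3 enzymes had a negative genotype estimate in each diet. The test of a difference between diets did not separate it from 0 for any of them (adjusted p = 0.999 for each, edgeR), and its sign rested on single choices for Acat1 (0.03, and -0.06 without R403Q-CD replicate 2) and for Bdh1 (0.16, and -0.005 with cage as a replicate block).

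Slc16a1, the main carrier of the muscle membrane, lay lowest in R403Q-EMPA. WT-CD mice had 305, 349, 349, 359 and 409 CPM and WT-EMPA mice 331, 333, 338, 366 and 403.3 CPM. R403Q-CD ran from 313 to 387 CPM with a median of 367 (n = 7). R403Q-EMPA mice had 258, 277, 294 and 345 CPM, and 3 of these 4 hearts were below every WT-EMPA and every R403Q-CD heart. Neither comparison passed: R403Q-EMPA against WT-EMPA was -0.27 (95% interval -0.46 to -0.08, adjusted p = 0.194, edgeR) and R403Q-EMPA against R403Q-CD was -0.29 (95% interval -0.47 to -0.11, adjusted p = 0.181). These 2 comparisons share the R403Q-EMPA mice. On the control diet the genotypes differed by 0.02 (95% interval -0.15 to 0.19).

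**Figure D2:**
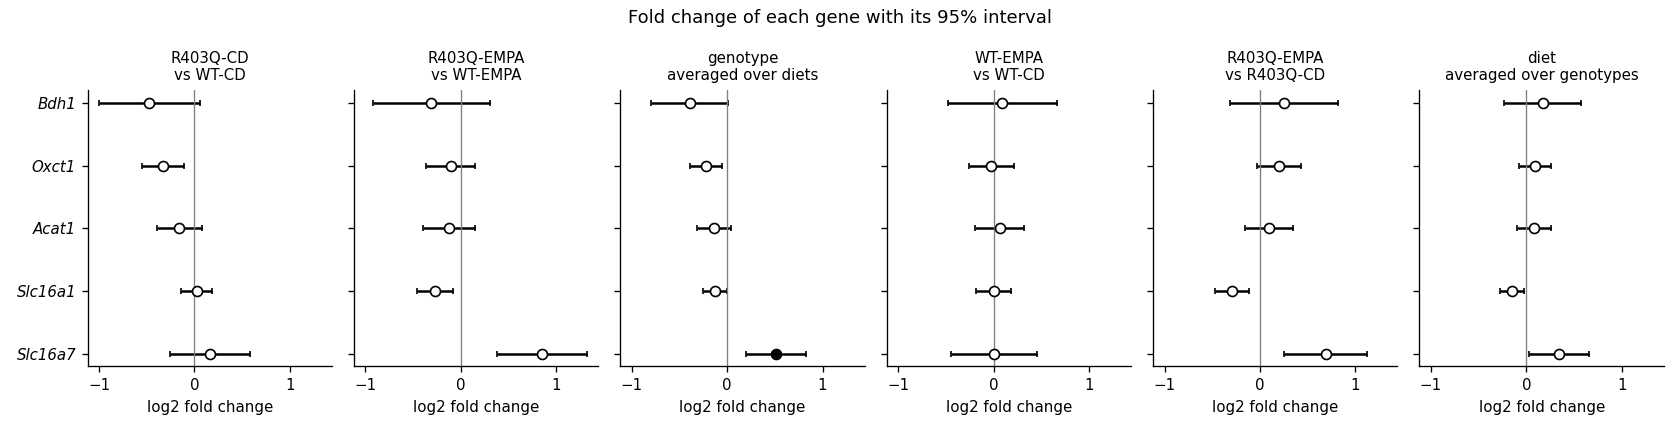
Log2 fold change of each gene (x axis, common scale) with its 95% interval in the edgeR fit of all 21 mice. Panels from left to right give the genotype in each diet and averaged, then EMPA in each genotype and averaged. The only filled circle, which marks an adjusted p under 0.05, is Slc16a7 with genotype averaged over diets (0.51), and the intervals of all 5 genes for EMPA in WT hearts include 0.

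EMPA was associated with no change past the threshold in any of the 5 genes. In WT hearts the estimates were 0.09 for Bdh1, -0.02 for Oxct1, 0.06 for Acat1, -0.0003 for Slc16a1 and 0.0003 for Slc16a7. The intervals limit what could have gone unseen: in WT hearts that of Oxct1 ran from -0.26 to 0.21, that of Acat1 from -0.19 to 0.32 and that of Slc16a1 from -0.18 to 0.18. Those of Bdh1 and Slc16a7 were wider, from -0.48 to 0.67 and from -0.45 to 0.45. In R403Q hearts the estimates were 0.26 for Bdh1 (95% interval -0.31 to 0.82), 0.20 for Oxct1 (-0.03 to 0.44) and 0.10 for Acat1 (-0.15 to 0.35). Without R403Q-CD replicate 2 these became 0.50, 0.12 and 0.01. The estimates for the transporters in R403Q hearts were -0.29 for Slc16a1 and 0.69 for Slc16a7 (0.26 to 1.12, adjusted p = 0.184). The carriers thus had estimates of opposite sign in the same 4 hearts.

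By edgeR, 0 of 5 genes passed in R403Q-EMPA against R403Q-CD, in WT-EMPA against WT-CD and with diet averaged over genotypes, against 0.0116%, 0.0289% and 2.91% of all genes tested. At an unadjusted p under 0.05 the counts were 2, 0 and 2 of 5, against 13.4%, 11% and 20.1% of all genes. DESeq2 called 0 of 5 in each, against 0.872%, 0.636% and 5.81% of all genes, and limma called 0 of 5 by both of its fits. In the test of whether the EMPA difference depends on genotype, the estimates were 0.69 for Slc16a7 (95% interval 0.06 to 1.318) and -0.29 for Slc16a1 (95% interval -0.55 to -0.04), with an adjusted p of 0.999 for both by edgeR. Here 2 of 5 genes had an unadjusted p under 0.05, against 3.28% of all genes, and 0 of 17309 genes passed after adjustment in edgeR or in DESeq2.

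The carriers were also compared with each other within each heart. Per 1000 counts of Slc16a1, there were 29.6 to 59.8 counts of Slc16a7 in WT-CD, 37.1 to 47.3 in WT-EMPA, 20.4 to 74.0 in R403Q-CD and 70.3 to 124 in R403Q-EMPA. The 20.4 was R403Q-CD replicate 2, with 7.60 CPM of Slc16a7 beside 373 CPM of Slc16a1. The lower limit of R403Q-CD without that heart was not computed. The R403Q-EMPA hearts lay above all WT hearts and overlapped R403Q-CD. Ratios were formed after the levels had been seen and were not tested, and how many other gene pairs separate the groups was not counted. Acat1 per 1000 counts of Oxct1 ran from 382 to 428 in WT-CD and from 433 to 488 in R403Q-CD, without overlap. Bdh1 per 1000 counts of Oxct1 overlapped, with 37.8 to 67.7 in WT-CD and 18.8 to 126 in R403Q-CD (median 38.0). The 126 was R403Q-CD replicate 2, which had the highest Bdh1 and the lowest Oxct1 of its group. The upper limit without that heart was not computed. On EMPA the ratio of Acat1 to Oxct1 was 399.8 to 448 in WT and 417 to 428 in R403Q hearts, so that WT-EMPA reached into the range of R403Q-CD.

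**Figure D3:**
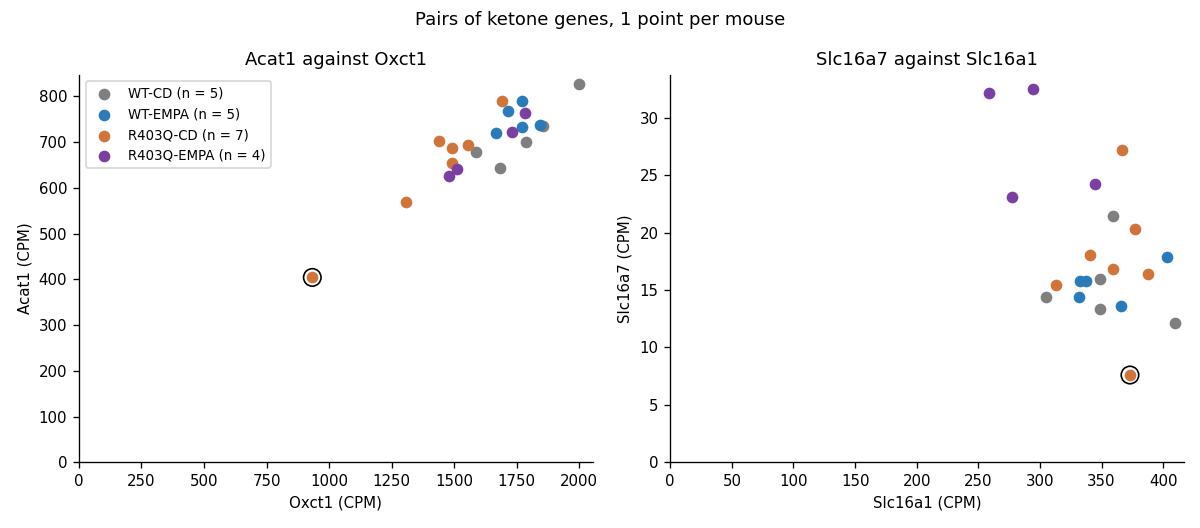
Left, Acat1 against Oxct1; right, Slc16a7 against Slc16a1, both in CPM with axes from 0, with 1 point per mouse coloured by group and R403Q-CD replicate 2 ringed. Acat1 follows Oxct1 across the 21 hearts (Pearson r = 0.93), whereas the 4 R403Q-EMPA hearts sit toward the upper left of the carriers' plot.

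Oxct1 and Acat1 went up and down together from heart to heart. On log2 CPM over 21 mice, Pearson's r was 0.93 and Spearman's rho 0.80, and r was 0.82 over the 20 mice without R403Q-CD replicate 2. After group means were subtracted r was 0.96, and 0.88 without that mouse. These values describe libraries that share a normalization and a tissue composition. The r of Bdh1 with Oxct1 rested on 1 heart: it was 0.13 over 21 mice and 0.61 over the 20 without R403Q-CD replicate 2, which had the lowest Oxct1 and a high Bdh1. The carriers had an r of -0.49 with each other over all mice and -0.09 after group means were subtracted.

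The genes most like Oxct1 over 21 mice were Mut (r = 0.95), which makes succinyl-CoA from propionate, Acadm (0.94), the medium-chain acyl-CoA dehydrogenase, and Pcca (0.93), a subunit of propionyl-CoA carboxylase. Those most like Acat1 were Acadm, Acaa2 and Etfa (0.96 each), of fatty acid oxidation and its electron transfer. Without R403Q-CD replicate 2, r fell to between 0.83 and 0.90 for these pairs. With group means subtracted, the genes most like Oxct1 were Acat1 (0.96), Pdhx (0.96) and Ndufs1 (0.94), and those most like Acat1 were Ndufs1 (0.98), Dld (0.98) and Pdha1 (0.97), of the pyruvate dehydrogenase complex and respiratory complex I. For Slc16a1 these were Camk2d (0.79), Rassf7 and Gm17029 over all mice and Vti1a (0.81), Srl and Inpp5a within groups, and for Slc16a7 they were Enpp2 (0.79), St8sia4 and 2010320O07Rik over all mice and Wars2 (0.84), Plekhh1 and Jmjd4 within groups. For Bdh1 they were Camta1 (0.77), Gm44710 and Gm15743, the antisense gene inside it, over all mice, and Fam124a (0.88), Cgref1 and Apbb1ip within groups. Without R403Q-CD replicate 2, r was 0.79 for Camk2d, 0.83 for Vti1a, 0.69 for Enpp2, 0.59 for Wars2, 0.75 for Camta1, 0.85 for Gm15743 and 0.83 for Fam124a.

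Around the 5 genes, few others of ketone and monocarboxylate metabolism passed the threshold. Of 43 genes in 7 lists, 33 were tested. With genotype averaged over diets 0 were higher and 2 were lower, which is 6.06% of them against 10.9% of all genes. In the other contrasts 0 of the 33 passed in edgeR. The 2 lower genes were Cs, citrate synthase (-0.30, SE 0.0892, adjusted p = 0.0337, edgeR), which takes up the acetyl-CoA that ketone use delivers, and Ppara (-0.39, SE 0.116, adjusted p = 0.0348), the receptor that drives genes of fatty acid and ketone metabolism. Without R403Q-CD replicate 2 the count was 6, Cs, Ppara, Hadha, Ogdh, Slc16a6 and Slc16a10, all lower in R403Q, while 12.6% of all genes passed in that fit. With cage as a replicate block it was 1, while 5.45% of all genes passed.

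Genes of cytosolic ketone use, listed with relatives of Bdh1, Oxct1 and Acat1, were scarce in these hearts, and 0 of the 3 tested ones passed in any contrast by edgeR. Aacs, the synthetase that activates acetoacetate for lipid synthesis, stood at 3.89 to 5.53 CPM in WT-CD (median 5.21, n = 5), 3.85 to 5.44 in WT-EMPA (median 3.90, n = 5), 4.67 to 6.71 in R403Q-CD (median 5.57, n = 7) and 5.01 to 5.98 in R403Q-EMPA (median 5.11, n = 4). The genotypes overlapped on each diet, and averaged over diets the difference was 0.28 (95% interval 0.08 to 0.47, adjusted p = 0.0560, edgeR). Acat2, the cytosolic thiolase related to Acat1, was at 4.91 CPM over all mice and differed by -0.24 with EMPA averaged over genotypes (95% interval -0.44 to -0.05, adjusted p = 0.147). Bdh2, a cytosolic dehydrogenase, was at 0.490 CPM. Oxct2a and Oxct2b, the testis forms of SCOT, had 0 counts in all 21 mice, where 3 counts would have been 0.0689 to 0.128 CPM.

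Among 11 other genes of the transporters' family 10 were tested and 0 passed in any contrast by edgeR. Slc16a10 and Slc16a6 were the most abundant of these 10, at 24.7 and 11.4 CPM over all mice. The estimate with diet averaged over genotypes for Slc16a10, a carrier of aromatic amino acids, was 0.25 (95% interval 0.10 to 0.40, adjusted p = 0.0551), and 0.21 without R403Q-CD replicate 2 (adjusted p = 0.0286). Bsg, the chaperone that brings MCT1 to the membrane, was abundant at 1139 CPM and differed between genotypes by -0.11 (95% interval -0.26 to 0.03), and Emb, the partner of MCT2, at 7.59 CPM, by 0.11 (95% interval -0.05 to 0.28). Of the sodium-coupled carriers, Slc5a12 had 0 counts and Slc5a8 at most 0.0600 CPM.

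Of the 6 genes for the succinyl-CoA and acetyl-CoA steps beside ketolysis, 6 had a negative estimate with genotype averaged over diets, with a median of -0.17 against 0.01 over all genes, and 1 passed, Cs, where 10.9% of all genes passed. Ogdh and Dlst, of the complex that makes succinyl-CoA, were at -0.28 (adjusted p = 0.0997, edgeR) and -0.17, and Sucla2 and Suclg1, of the ligases that use it, at -0.15 and -0.01. The 3 genes of the mitochondrial thiolase and trifunctional protein (Acaa2, Hadha and Hadhb) were at -0.23, -0.27 and -0.17 with 0 passing. Among 4 genes of lactate and pyruvate handling 0 passed, with Ldhb at -0.14 and Ldha at 0.01. Of 5 tested receptors and regulators, Ppara passed, and Ppargc1a, the coactivator of mitochondrial genes, was at -0.33 (adjusted p = 0.112). Hcar2, a receptor for β-hydroxybutyrate, reached at most 0.120 CPM, and Ffar3 had 0 counts.

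**Figure D4:**
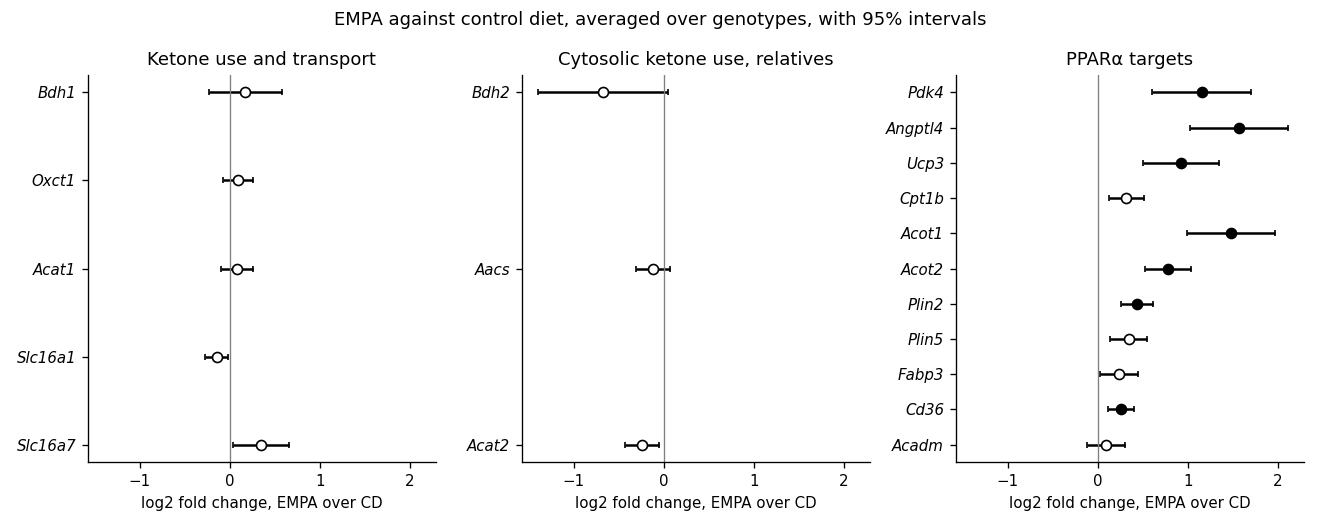
Log2 fold change of EMPA over control diet averaged over genotypes (x axis, common scale) with its 95% interval, for the 5 ketone use and transport genes (left), 3 genes of cytosolic ketone use and their relatives (middle) and 11 targets of PPARα (right). Filled circles mark an adjusted p under 0.05: 0 of 5, 0 of 3 and 7 of 11.

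The targets of PPARα, a receptor for fatty acids, were set beside the 5 genes because the receptor drives genes of fatty acid and ketone metabolism. With EMPA averaged over genotypes 7 of 11 rose, where 2.91% of all genes passed, with a median of 0.44 over the list against -0.01 over all genes. Angptl4, an inhibitor of lipoprotein lipase, rose by 1.57 (adjusted p = 0.00530, edgeR), Acot1, an acyl-CoA thioesterase, by 1.48 (adjusted p = 0.00466) and Pdk4, which shuts down pyruvate dehydrogenase, by 1.15 (adjusted p = 0.0253). Ucp3, Acot2, Plin2 and Cd36 rose by 0.92, 0.78, 0.44 and 0.26. The median of Bdh1, Oxct1 and Acat1 was 0.09 in that contrast, and 0.05 without R403Q-CD replicate 2. Other lists moved with diet too: 6 of 12 clock genes passed (Arntl and Clock rose by 1.70 and 0.36, and Ciart, Dbp, Nr1d1 and Per1 fell by 1.43, 1.02, 0.62 and 0.34), as did 4 of 5 erythroid markers, whose summed level was 1214 to 2660 CPM on EMPA and 706 to 1717 CPM on control diet. When R403Q-CD replicate 2 was left out the counts were 9 of 11 PPARα targets, 9 of 12 clock genes and 4 of 5 erythroid markers, while 4.22% of all genes passed. Each cage held 1 diet, so these differences cannot be told apart from differences between cages. With cage as a random effect in limma voom, 113 of all genes passed with diet averaged over genotypes, against 504 in edgeR. The counts of these lists are given by edgeR only. The part of the clock and erythroid genes in the values of the PPARα targets was not tested.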

How the data were processed

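RNA was sequenced from frozen left ventricle of 21 mice. The authors selected polyadenylated RNA, sequenced read pairs, aligned them to mm10 with STAR 2.6.0c, made the deposited counts with featureCounts (Subread 1.6.2) from uniquely aligned proper pairs on Ensembl genes without mitochondrial genes, and ran FastQC 0.11.7. The authors also deposited log2 values, made from the counts with the variance-stabilizing transformation of DESeq2 1.32.0, which were used only in an alternative. Gene symbols and coordinates (GRCm38) were taken from GENCODE and matched 55190 of 55450 genes.

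All 4 groups were fitted together in R 4.3.3 with edgeR 4.0.16 (filterByExpr with a minimum count of 10, TMM, quasi-likelihood F test, Benjamini-Hochberg over 17309 genes, threshold 0.05). The fit gave 4 comparisons of groups, genotype and diet averages, and their interaction. CPM used TMM library sizes, and intervals are 95% intervals of the fit. Each mouse gave 1 library. Totals were 23491535 to 43539684 counts, and a floor of 3 counts covers counting error only. p-values measure the spread between mice, some of which shared a cage.

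The study used DESeq2, which was an alternative here (1.42.0), beside library-size scaling, no filter, limma 3.58.1 on the deposited log2 values, voom with cage as a random effect, cage as a replicate block, a fit without WT-EMPA, and leaving out each mouse. Cages were taken from the cage field of the sample labels. Deviations from group means of same-cage mice of different genotype had a median correlation of 0.148 over 12 pairs, against -0.0235 over 43 pairs from different cages on 1 diet. On simulated counts, 98% of 200 genes changed 2-fold were recovered with genotype averaged over diets among 17170 genes, and 82.5% of 200 changed by 0.5 on the log2 scale among 17145, or 66% of 200 in R403Q-CD against WT-CD. With no change, 0 of 17129 were called.

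The 5 genes, the lists and the marker genes were chosen with earlier results of these data known. All 5 genes are named. Some genes that meet the rules are not reported here, and the list counts leave them out. From each list, genes past the threshold in any contrast are named, otherwise at most 4 of the most abundant, and values for other list genes were chosen after seeing them. For each of the 5 genes, the 3 tested genes with the highest Pearson correlation on log2 CPM (prior count 2), over all mice and within groups, are named.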

Additional observations from a re-analysis of the deposited data

How the results depend on the processing

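Of 940 recomputed fold changes of the 5 genes, 894 kept their direction and their side of the threshold. With genotype averaged over diets, edgeR called 1 of the 5, DESeq2 called 2, and voom with cage as a random effect and cage as a replicate block called 0 each. Over all genes these fits called 10.9%, 15.5%, 1981 of 17309 and 5.45%, in that order. Leaving out 1 mouse gave 0 to 3 of the 5, the 3 without R403Q-CD replicate 2, where 12.6% of all genes passed. DESeq2 called 1 in R403Q-CD against WT-CD and 1 in R403Q-EMPA against WT-EMPA (5.67% and 1.76% of all genes), where edgeR called 0 (1.44% and 0.0578% of all genes). Leaving out 1 mouse gave 0 in the former and 0 to 1 in the latter, the 1 without R403Q-CD replicate 2. The replicate block took the Slc16a7 estimate to 0.39 (adjusted p = 0.229) and changed no other call among the 5 genes. Some signs turned: Slc16a1 in WT-EMPA against WT-CD was 0.0016 by DESeq2, 0.0037 by limma and 0.0044 by voom, Slc16a7 in that comparison was -0.0158 with library-size scaling and -0.0042 with no filter, and the interaction of Bdh1 (0.16) was -0.0050 with the replicate block. Leaving out 1 mouse turned the sign of Slc16a1 in R403Q-CD against WT-CD (-0.0279 to 0.0781), of Oxct1 (-0.0627 to 0.0213), Slc16a1 (-0.0511 to 0.0567) and Slc16a7 (-0.0752 to 0.1496) in WT-EMPA against WT-CD, and of the interactions of Bdh1 (-0.0606 to 0.4057) and Acat1 (-0.0552 to 0.0902). The causes were not tested.

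Counts over all genes moved more. In R403Q-CD against WT-CD, edgeR called 250 genes (153 higher and 97 lower), DESeq2 982, voom 475, the fit without WT-EMPA 98, the replicate block 19, and library-size scaling 352 (274 higher and 78 lower). With genotype averaged over diets the count was 1883 (1091 higher and 792 lower), 944 with the replicate block, and 2352 with library-size scaling (1909 higher and 443 lower), which shifted the median of all genes to 0.07. Leaving out 1 mouse gave 31 to 1045 genes in the first of these and 961 to 2764 in the second. The 2, 5, 10 and 504 genes called in R403Q-EMPA against R403Q-CD, WT-EMPA against WT-CD, R403Q-EMPA against WT-EMPA and diet averaged over genotypes became 151, 110, 304 and 1005 by DESeq2, and for the third 201 without R403Q-CD replicate 2. Diet averaged over genotypes gave 314 with no filter and 113 with voom. A recount of the 33 tested pathway genes was added after seeing the data. By DESeq2 it gave 1 in R403Q-CD against WT-CD and 5 with genotype averaged over diets, against 5.67% and 15.5% of all genes. With diet averaged over genotypes it gave 1 by DESeq2, library-size scaling or without R403Q-CD replicate 2. There DESeq2 called 5.81% of all genes, library-size scaling 471 of 17309, and the fit without that mouse 4.22%. The counts of marker, wall stress, clock and PPARα genes without R403Q-CD replicate 2 were likewise added after seeing the data.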

Other observations

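Wall stress and marker genes gave further values beside the ketone genes. Of 5 wall stress genes (Nppa, Nppb, Acta1, Ankrd1 and Myh7), Nppa was the only 1 to pass with genotype, at 1.58 averaged over diets (adjusted p = 0.0200, edgeR) and 2.73 on the control diet (adjusted p = 0.0248), where 10.9% and 1.44% of all genes passed. These estimates became 1.11 (adjusted p = 0.00966) and 1.80 (adjusted p = 0.0158) without R403Q-CD replicate 2. Its level was 238 to 595 CPM in WT-CD, 360 to 746 CPM in WT-EMPA, 429 to 1090 CPM in R403Q-EMPA and 883 to 10996 CPM in R403Q-CD, or 883 to 3826 CPM without replicate 2. R403Q-CD and WT-CD did not overlap, as was so for 2.12% of all genes. Myh7, the slow myosin heavy chain, passed with diet and rose by 0.53 on EMPA (adjusted p = 0.0139), and by 0.50 without R403Q-CD replicate 2, where Ankrd1 passed as well (-0.64, adjusted p = 0.0341). The level of Myh7 ran from 1904 to 2960 CPM in R403Q-CD and from 3111 to 3484 CPM in R403Q-EMPA. In WT hearts it ran from 2627 to 2951.5 CPM on control diet and, more widely, from 3019.5 to 6085.5 CPM on EMPA. The diets did not overlap in either genotype, as was so for 1.62% of all genes in R403Q and 3.45% in WT hearts.

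With genotype averaged over diets, where 10.9% of all genes passed, 1 of 7 cardiomyocyte markers did (Myh6, -0.39, adjusted p = 0.0419, edgeR), as did 1 of 6 endothelial markers (Emcn, 0.38) and 1 of 5 fibroblast markers (Dcn, 0.40). In the fit without R403Q-CD replicate 2 the estimates were -0.34 for Myh6 (adjusted p = 0.00770), 0.34 for Emcn and 0.35 for Dcn, and Tcf21 was a second fibroblast marker to pass (0.30, adjusted p = 0.0499). Of the 4 atrial markers only Nppa passed, and 0 of 4 smooth muscle and pericyte, 0 of 5 adipocyte and 0 of 5 erythroid markers did. With diet averaged over genotypes, where 2.91% of all genes passed, Kdr was the only 1 of 6 endothelial markers to pass (0.35, adjusted p = 0.0217), and 0 of 5 macrophage and 0 of 5 fibroblast markers passed. With R403Q-CD replicate 2 left out, Kdr was at 0.34 and 1 of 5 fibroblast markers passed (Pdgfra, 0.20, adjusted p = 0.0484).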
